A study of Mus musculus with 6 samples.

Results

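The genes described here are 40 mouse genes for ligands, receptors, co-receptors, antagonists and modulators of the TGF-beta and BMP family, chosen by gene symbol from the 54532 genes of the deposited expression table, where all 40 were found. They hold 13 ligands, 10 receptors, 3 co-receptors, 9 antagonists and 5 modulators. By branch, 17 belong to the BMP and GDF group, 9 to TGF-beta, 12 to activin and nodal, and 2 serve several branches. The branch was set by name, so Gdf3 and Gdf11 stand with the BMPs although they can act through activin-type receptors.

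RNA was sequenced from P19 cells, a mouse embryonal carcinoma line that forms neural cells when given retinoic acid. Cells were transfected transiently with a negative control siRNA (NC, 3 replicates) or an siRNA against Baf45d (3 replicates), using the Lipofectamine reagent, and both groups were then differentiated with all-trans retinoic acid for 5 days. Dpf2 encodes BAF45D, one of the subunits of the chromatin-remodelling BAF complex, and the series asks how it relates to SMAD signaling in early neural differentiation. All 6 libraries come from 1 line and no untreated or uninduced cells are compared, so levels describe the end of differentiation and not its course.

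Ligands of this family are secreted dimers that bring type I and type II receptor kinases together, and the type I receptor then phosphorylates SMAD proteins that act in the nucleus. BMP receptors pass the signal to one set of SMADs, and TGF-beta, activin and nodal receptors to another. Secreted antagonists such as noggin and chordin hold BMPs away from their receptors, and in the embryo low BMP and nodal signaling favours neural fate.

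Total counts per library ran from 17127876 to 21224822. Dpf2, the siRNA target, stood at 156.1, 154.1 and 157.5 CPM (the count of a gene after scaling every library to 1 size) in NC replicates 1 to 3 and at 148.2, 141.4 and 147.2 CPM in Baf45d replicates 1 to 3. The fold change on the log2 scale came to -0.10 (SE 0.07, adjusted p of 0.996 in edgeR), and each Baf45d value lay below each NC value by a small margin. The groups are named here as the labels name them. Baf45d replicate 3 stood apart in Gapdh, with 236.2 CPM where the others had 14.02 to 31.2 CPM, and its weight in the results is given in a paragraph of its own. The treatment text also mentions an siRNA against Gapdh. Of the marker lists, neural genes summed to between 1030.2 and 1373 CPM per library and mesenchymal genes to between 1122 and 1640.5 CPM. The pluripotency markers Zfp42, Dppa5a and Dppa3 had 0 counts in all 6 libraries, while Pou5f1 and Nanog were detected in each. Nothing states whether replicates came from separate cultures beyond the label biological replicate, so p-values measure only the spread between these samples.

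None of the family's genes passed the test for a difference between the groups. Of the 40, 37 had enough counts to be tested, and in edgeR's quasi-likelihood test on the counts, adjusted over all 16078 genes tested, 0 of 37 were called higher and 0 were called lower, against 0% of all genes in each direction. The adjusted p of the 37 lay between 0.996 and 0.998, and DESeq2 and limma-voom also called 0. At an unadjusted p under 0.05 there was 1 gene, Tdgf1, which is 2.7% of the 37 against 2.85% of all genes in either direction and 1.64% in the lower direction. DESeq2 gave 0 at that level. The median log2 fold change of the 37 was -0.06, with 18 higher and 19 lower, against a median of 0.01 over all genes.

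The intervals show how large a difference these libraries could still hold. The median SE was 0.124 on the log2 scale for the 37 genes, against 0.136 for all genes. For 25 of the 37 the 95% interval of the fold change lay within 1.5-fold in both directions, and for 32 within 2-fold, which is 67.6% and 86.5% against 66.1% and 85.9% of all genes. The 5 wider ones were Grem1, Lefty2, Bmp5, Tdgf1 and Inhbb, all genes of low level. Grem1, with 466 counts in all, also differed 8.47-fold between its lowest and highest library. In bulk RNA, fewer cells of a type and less RNA per cell cannot be told apart.

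**Figure D1:**
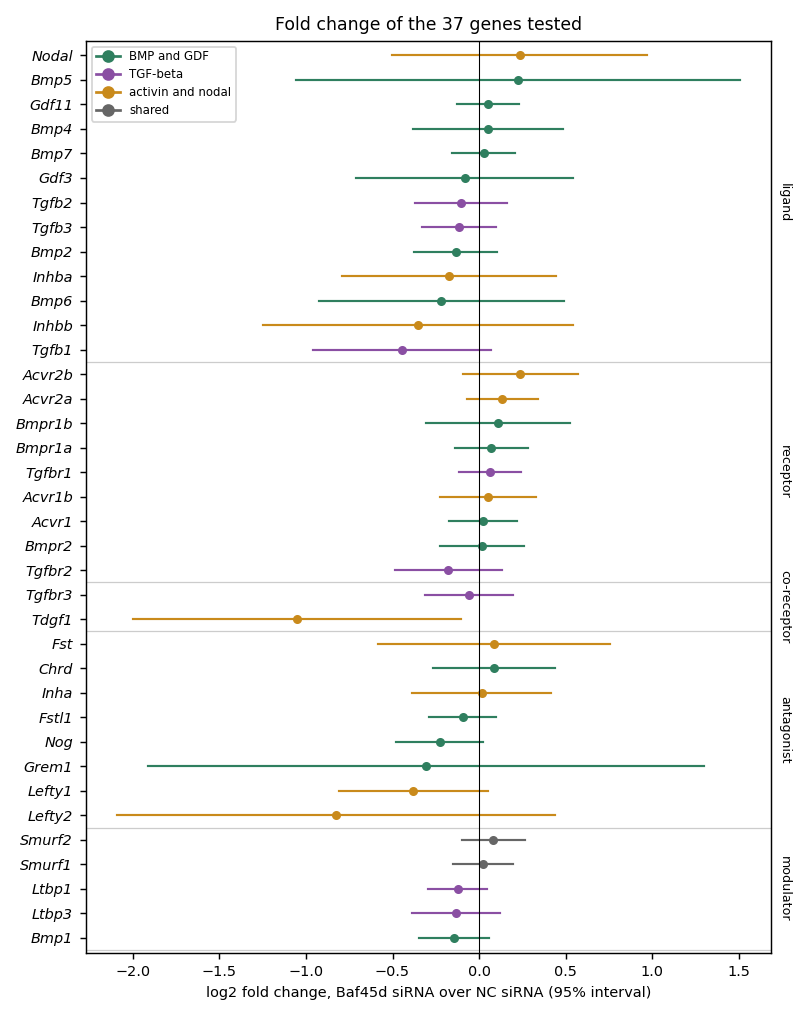
Log2 fold change of each of the 37 tested genes, Baf45d siRNA over NC siRNA, as points with 95% intervals from the edgeR fit on 3 against 3 libraries; genes are grouped by role and coloured by branch. Only the interval of Tdgf1, from -1.997 to -0.10, leaves out 0, and that is before adjustment over all genes.

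Levels are given as the deposited FPKM, which is per length and can be set between genes. They spanned 3 orders of size, with 8 of the 40 genes below 0.5 FPKM on average over the 6 libraries, 2 between 0.5 and 1, 9 between 1 and 5, 5 between 5 and 10, 9 between 10 and 20 and 7 at 20 or more. The follistatin-like gene Fstl1 led at a mean of 96.6 FPKM, followed by the ligand Bmp7 at 40.4, the receptor Bmpr1a at 34.2 and the latency protein Ltbp1 at 30.3. At the other end stood Acvrl1 and Eng, each at 0.10 FPKM, and Bmp5 at 0.14.

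**Figure D2:**
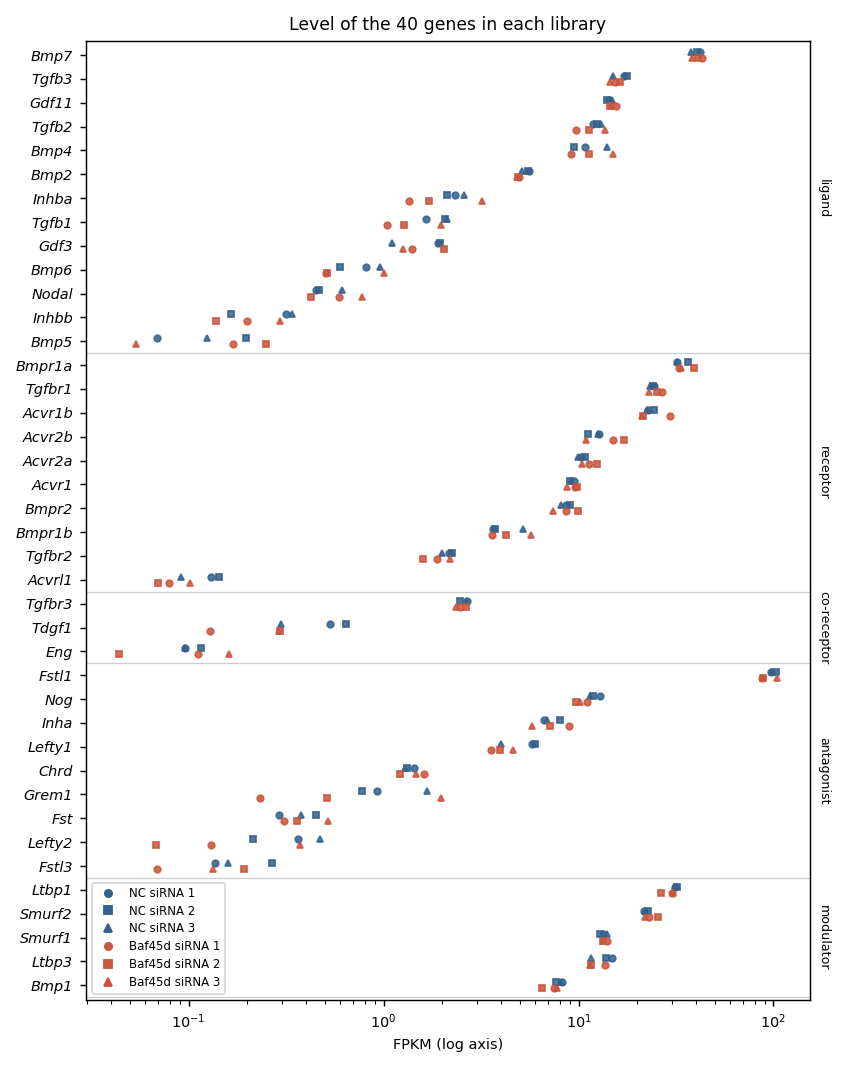
FPKM of each of the 40 genes in each of the 6 libraries, on a log axis, grouped by role; blue is NC siRNA, red is Baf45d siRNA, and the symbol gives the replicate. Within a gene the libraries lie close together compared with the distance between genes, from Acvrl1 at 0.10 to Fstl1 at 96.6 FPKM on average.

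The sequences upstream of 3 genes are shown as context for the values given for them further on. Tdgf1 had the smallest p of the 37, and Inhba and Grem1 are a ligand and an antagonist whose fold changes depended on 1 Baf45d library. Each is the stretch of 250 bases before the gene's start in RefSeq (GRCm38.p6), written 5′ to 3′ on the gene's strand. Tdgf1 lies at chr9:110946159-110946408 (minus strand), Inhba at chr13:16011601-16011850 (plus strand) and Grem1 at chr2:113758649-113758898 (minus strand). Capitals mark the SMAD-binding letters CAGAC and the GC-rich letters GGCGCC, searched on both strands.
Tdgf1: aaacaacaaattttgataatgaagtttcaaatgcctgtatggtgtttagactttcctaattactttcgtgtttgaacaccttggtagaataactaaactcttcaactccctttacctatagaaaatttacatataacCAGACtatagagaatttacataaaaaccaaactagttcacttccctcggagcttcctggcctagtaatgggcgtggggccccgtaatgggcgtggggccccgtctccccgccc
Inhba: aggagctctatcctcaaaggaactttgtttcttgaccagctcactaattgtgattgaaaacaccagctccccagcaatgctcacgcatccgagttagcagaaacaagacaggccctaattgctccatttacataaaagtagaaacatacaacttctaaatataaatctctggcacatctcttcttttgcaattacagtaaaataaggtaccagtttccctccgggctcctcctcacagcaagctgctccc
Grem1: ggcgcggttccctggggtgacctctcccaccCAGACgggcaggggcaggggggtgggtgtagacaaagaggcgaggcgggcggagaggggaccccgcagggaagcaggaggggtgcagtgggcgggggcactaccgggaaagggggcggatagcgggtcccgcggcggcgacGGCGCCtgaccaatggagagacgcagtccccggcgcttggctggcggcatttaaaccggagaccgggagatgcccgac
Tdgf1 and Grem1 each held CAGAC once, Grem1 held GGCGCC once and Inhba held neither. Bases were 72.0% G or C upstream of Grem1, 43.2% upstream of Inhba and 42.0% upstream of Tdgf1. Upstream windows were found for 29 of the 40 genes. As some genes have several starts, these made 33 windows. CAGAC was present in 19 of the 33 windows, against 42.2% of 32851 windows of that length over the genome. GGCGCC was present in 6 of the 33, against 9.59%. TGANTCA, the AP-1 letters, whose end can overlap CAGAC, was present in 0 of the 33, against 6.75%. These matches describe letters and say nothing of binding.

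Among BMP and GDF ligands, Bmp7 was by far the most abundant and did not differ between the groups beyond the spread. Bmp7, a ligand used widely in the embryo, stood at 42.1, 40.4 and 37.6 FPKM in NC replicates 1 to 3 and at 43.2, 40.8 and 38.2 FPKM in the Baf45d replicates. The values overlapped almost fully, and in both groups replicate 3 was lowest. The log2 fold change was 0.03 (SE 0.08, 95% interval -0.16 to 0.21). Bmp7 made up 50.9% to 57.6% of the FPKM of the 7 BMP and GDF ligands in each library, Gdf11 19.02% to 20.8% and Bmp4 12.2% to 20.03%.

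Bmp2, a ligand of heart and limb development on chromosome 2 (133552159 to 133562885, plus strand, GRCm38), was 1 of 4 genes whose groups did not overlap. It stood at 5.56, 5.49 and 5.11 FPKM in the NC libraries and at 4.95, 4.92 and 4.86 FPKM in the Baf45d libraries. Every Baf45d value lay below every NC value, by a small margin. In the fit the log2 fold change was -0.13 (SE 0.11, 95% interval -0.37 to 0.10).

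Bmp4, the ligand that most directly opposes neural fate in the early embryo, varied more within the groups than between them. It stood at 10.8, 9.46 and 14.05 FPKM in the NC libraries and at 9.18, 11.3 and 15.04 FPKM in the Baf45d libraries. Replicate 3 was highest in both groups, and the log2 fold change was 0.05 (SE 0.19). Gdf11, a regulator of axial patterning and neuron number, kept between 13.99 and 15.6 FPKM in all 6 libraries. Bmp6, Gdf3 and Bmp5 were low, at means of 0.73, 1.61 and 0.14 FPKM, with log2 fold changes of -0.22, -0.08 and 0.23.

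All 3 TGF-beta ligands had negative fold changes, none past the test. Tgfb3, the most abundant of them at 48.1% to 59.0% of their FPKM, stood at 17.2, 17.8 and 14.96 FPKM in the NC libraries and at 15.4, 16.3 and 14.5 FPKM in the Baf45d libraries. The groups overlapped, and the log2 fold change was -0.12 (SE 0.10). Tgfb2 stood at a mean of 12.4 ± 0.619 FPKM against 11.5 ± 2.005 FPKM (SD, n = 3), with a log2 fold change of -0.11.

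Tgfb1, the least abundant, stood at 1.65, 2.06 and 2.12 FPKM in the NC libraries and at 1.04, 1.28 and 1.96 FPKM in the Baf45d libraries. Baf45d replicates 1 and 2 lay below all NC libraries and replicate 3 among them. Fitted to the counts, the log2 fold change was -0.44 (SE 0.23, 95% interval -0.96 to 0.07). With the replicate number as a block in edgeR, its log2 fold change was -0.47 and its adjusted p 0.509.

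Of the activin and nodal ligands, Inhba, which encodes the subunit of activin A, made up 63.1% to 76.9% of their FPKM. It stood at 2.34, 2.11 and 2.60 FPKM in the NC libraries and at 1.35, 1.70 and 3.18 FPKM in the Baf45d libraries. The Baf45d group thus held both the lowest values and the highest one. The log2 fold change was -0.18 (SE 0.27), and leaving out each library in turn gave values from -0.62 to 0.06. Nodal, the ligand of mesendoderm and left-right patterning, and Inhbb stayed under 1 FPKM in every library, with log2 fold changes of 0.23 (SE 0.33) and -0.35 (SE 0.40).

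Among the receptors, 8 of 9 tested had a positive fold change, with a median of 0.07 on the log2 scale, and none passed the test. Over all genes, 8352 of 16078 were positive, with a median of 0.01. When single libraries were left out, the sign turned at least once for Bmpr1a, Bmpr1b, Bmpr2, Acvr1 and Acvr1b. It stayed positive for Acvr2a, Acvr2b and Tgfbr1. Summed FPKM of the 6 type I receptors was 94.1 ± 3.23 in the NC group and 98.2 ± 5.30 in the Baf45d group (SD, n = 3), and of the 4 type II receptors 33.2 ± 0.625 and 36.3 ± 5.14. The spread of each Baf45d sum was larger than the difference.

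Bmpr1a, the main type I receptor for BMPs, stood at 31.97, 36.3 and 31.9 FPKM in the NC libraries and at 32.7, 39.2 and 33.4 FPKM in the Baf45d libraries. Replicate 2 was highest in both groups, and each Baf45d value lay slightly above its same-numbered NC value. The difference on the log2 scale was 0.07 (SE 0.09, 95% interval -0.14 to 0.28). Bmpr1a held 31.98% to 39.1% of type I receptor FPKM, ahead of Tgfbr1 at 24.6% to 26.3% and Acvr1b at 21.5% to 28.8%. Bmpr1b, a second BMP type I receptor that is known from cartilage and neural tissue, was far lower, at 4.19 ± 0.859 FPKM in the NC group and 4.51 ± 1.07 FPKM in the Baf45d group (SD, n = 3). Acvr1 and Bmpr2, the other BMP receptors of substantial level, had log2 fold changes of 0.02 each.

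Tgfbr1, the type I receptor for TGF-beta, stood at 24.3, 24.1 and 23.3 FPKM in the NC libraries and at 26.8, 25.2 and 23.0 FPKM in the Baf45d libraries. Baf45d replicates 1 and 2 lay above all NC libraries and replicate 3 below them. In the fit the log2 fold change was 0.07 (SE 0.08). Its type II partner Tgfbr2, which binds TGF-beta first, was about an order lower, at 2.13 ± 0.122 FPKM in the NC group and 1.88 ± 0.299 FPKM in the Baf45d group (SD, n = 3). It was the only tested receptor with a negative log2 fold change, -0.18 (SE 0.14).

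Acvr1b, the type I receptor for activin and nodal, stood at 22.8, 24.4 and 22.4 FPKM in the NC libraries and at 29.4, 21.5 and 21.3 FPKM in the Baf45d libraries. Only Baf45d replicate 1 lay above the NC libraries, and the log2 fold change of 0.05 (SE 0.12) became -0.12 without it. Acvr2b, a type II receptor for activin and nodal, stood at 12.8, 11.3 and 12.5 FPKM in the NC libraries and at 14.98, 17.2 and 10.96 FPKM in the Baf45d libraries. Baf45d replicates 1 and 2 were the highest of the 6 libraries and replicate 3 the lowest. The log2 fold change was 0.24 (SE 0.15). Acvr2a, its close relative, had a log2 fold change of 0.13 (SE 0.09).

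Acvrl1, a BMP type I receptor, and Eng, a co-receptor, are both known from endothelium, and both fell below the filter with 49 and 47 counts over all 6 libraries. Of the 8 endothelial markers, Cdh5, Tie1, Emcn and Sox17 were also near 0, between 0 and 0.895 CPM. The list summed to between 33.6 and 49.5 CPM per library, most of it Kdr, which is not restricted to endothelium. Of the 4 markers tested, Tek had a log2 fold change of 0.83 and Kdr of -0.28, each at an unadjusted p under 0.05 in edgeR. Over all genes tested, 2.85% were under 0.05 in either direction.

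Tdgf1 had the largest negative fold change among the 37 genes. It encodes Cripto, the co-receptor that nodal needs, and is known from embryonal carcinoma and embryonic stem cells. The gene lies on chromosome 9 (110939603 to 110946158, minus strand, GRCm38). It had 25, 36 and 14 counts with NC siRNA and 6, 13 and 14 counts with Baf45d siRNA, which is 0.531, 0.641 and 0.297 FPKM against 0.129, 0.293 and 0.290 FPKM. The groups did not overlap, but NC replicate 3 lay just above Baf45d replicates 2 and 3. This amounted to a log2 fold change of -1.05 (SE 0.43), which is 0.483 times the NC level with a 95% interval from 0.250 to 0.931 before adjustment, and edgeR's adjusted p was 0.996. Of its 31-base windows, 12.6% also occur elsewhere among transcripts, led by the pseudogene Tdgf1-ps1, so some of its few counts are uncertain. Among genes of the pluripotency list, Pou5f1 had a log2 fold change of 0.04 (SE 0.21) and Nanog of -0.09 (SE 0.36).

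The TGF-beta co-receptor Tgfbr3, or betaglycan, stood at 2.68, 2.48 and 2.65 FPKM in the NC libraries and at 2.46, 2.66 and 2.37 FPKM in the Baf45d libraries. The groups overlapped, with a log2 fold change of -0.06 (SE 0.11).

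Antagonists of BMPs were dominated by Fstl1, a secreted glycoprotein that binds family ligands, at 86.4% to 88.5% of the FPKM of the 4 genes. Fstl1 stood at 96.9, 103.6 and 98.8 FPKM in the NC libraries and at 87.4, 88.6 and 104.2 FPKM in the Baf45d libraries. Baf45d replicates 1 and 2 were the lowest of the 6 and replicate 3 the highest. The difference on the log2 scale was -0.10 (SE 0.09, 95% interval -0.29 to 0.10).

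Nog, which encodes the BMP antagonist noggin (chromosome 11, 89300638 to 89302332, minus strand, GRCm38), was lower in all Baf45d libraries. It stood at 12.9, 11.9 and 11.4 FPKM in the NC libraries and at 11.01, 9.76 and 10.1 FPKM in the Baf45d libraries. The groups did not overlap, and the gap between them, from 11.01 to 11.4 FPKM, was smaller than the range within either. The log2 fold change was -0.23 (SE 0.11, 95% interval -0.48 to 0.02).

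Chrd, which encodes the BMP antagonist chordin, had a log2 fold change of 0.08 (SE 0.16). Grem1, another secreted BMP antagonist, had the largest ratio of the highest to the lowest library among the 37 genes. It stood at 0.927, 0.777 and 1.68 FPKM in the NC libraries and at 0.231, 0.513 and 1.97 FPKM in the Baf45d libraries. Replicate 3 was highest in both groups, and the log2 fold change of -0.31 had an SE of 0.69.

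Of the antagonists of activin and nodal, Inha, the inhibin alpha subunit, was the most abundant. It stood at 6.69, 8.05 and 6.87 FPKM in the NC libraries and at 8.94, 7.17 and 5.75 FPKM in the Baf45d libraries. The groups overlapped, with a log2 fold change of 0.01 (SE 0.18). Lefty1, a nodal antagonist that nodal itself induces, stood at 5.80, 5.98 and 4.02 FPKM in the NC libraries and at 3.56, 3.96 and 4.64 FPKM in the Baf45d libraries. NC replicates 1 and 2 were the highest, and NC replicate 3 lay within the Baf45d values. Fitted to the counts, the log2 fold change was -0.38 (SE 0.19, 95% interval -0.81 to 0.05).

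Lefty2, the neighbour of Lefty1 on chromosome 1, stood at 0.363, 0.215 and 0.469 FPKM in the NC libraries and at 0.1295, 0.068 and 0.375 FPKM in the Baf45d libraries, with a log2 fold change of -0.83 (SE 0.57). Of the 31-base windows of Lefty1 25.7% also occur in other transcripts, led by Lefty2, and of those of Lefty2 18.4%, led by Lefty1. Counts may thus be split between Lefty1 and Lefty2. Fst, which encodes the activin antagonist follistatin, had a log2 fold change of 0.09 (SE 0.30), and Fstl3 fell below the filter with 44 counts in all. Of the windows of Fstl3 46.7% also occur in other transcripts, led by the opposite-strand gene Prss57, and of those of Bmp5 46.2%, led by Gm26903. In all, 17 of the 40 genes overlap a gene on the other strand, and whether strand was used in counting is not given in the sources used here.

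Among the modulators, Ltbp1, which holds latent TGF-beta in the matrix (chromosome 17, 75005568 to 75392512, plus strand, GRCm38), was lower in all Baf45d libraries. It stood at 31.4, 31.9 and 31.4 FPKM in the NC libraries and at 30.0, 26.6 and 30.4 FPKM in the Baf45d libraries. The groups did not overlap, and replicate 2 gave most of the difference. This amounted to a log2 fold change of -0.12 (SE 0.08, 95% interval -0.30 to 0.05). Ltbp3, which has a related function, had a log2 fold change of -0.13 (SE 0.11).

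Bmp1, despite its name a protease that cleaves procollagen and chordin, stood at 8.197, 7.67 and 8.12 FPKM in the NC libraries and at 7.45, 6.48 and 7.77 FPKM in the Baf45d libraries. Only Baf45d replicate 3 reached into the NC range, and the log2 fold change was -0.14 (SE 0.09). Smurf2, a ubiquitin ligase that targets receptors and SMADs, stood at 21.7, 22.9 and 21.9 FPKM in the NC libraries and at 22.9, 25.5 and 22.1 FPKM in the Baf45d libraries. The groups overlapped, with a log2 fold change of 0.08 (SE 0.08). Its relative Smurf1 had a log2 fold change of 0.02 (SE 0.08).

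The 4 genes with non-overlapping groups were thus Bmp2, Tdgf1, Nog and Ltbp1, all lower with Baf45d siRNA. That is 10.8% of the 37, against 8.04% of all genes tested in either direction and 4.3% in the lower direction. A two-sided exact permutation test of a single gene gives p = 0.1 for such a pattern, the smallest that 3 against 3 allow.

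By branch, 7 of the 8 TGF-beta genes tested had a negative fold change, all but Tgfbr1, with a median of -0.12 against 0.01 over all genes, of which 48.1% were negative. None of the 8 passed the test. Summed FPKM of the 3 TGF-beta ligands was 30.7, 32.2 and 30.1 with NC siRNA and 26.1, 28.9 and 30.1 with Baf45d siRNA. The sums of Baf45d replicates 1 and 2 lay below the NC group and that of replicate 3 almost met it. Several marker lists had medians away from 0 as well. In the mesenchymal list 7 of 8 genes were negative, with a median of -0.22. Its summed level was 1640.5, 1637 and 1145 CPM in the NC libraries and 1357, 1247 and 1122 CPM in the Baf45d libraries. The paraxial mesoderm list had a median of -0.40 over 5 genes tested and the endoderm list of -0.31 over 3. Each had 2 genes lower at an unadjusted p under 0.05 in edgeR and 2 lower with non-overlapping groups. The mesenchymal list had 1 of each. Over all genes tested, 1.64% were lower at that p and 4.3% were lower with non-overlapping groups. In the neural list 8 of 10 genes were positive, with a median of 0.24, and 1 was higher at that p. Summed levels were 55.9 to 61.6 CPM with Baf45d siRNA against 65.7 to 82.6 CPM with NC siRNA for paraxial mesoderm. For endoderm, where Afp had 0 counts, they were 61.8 to 75.9 against 79.0 to 87.8 CPM, and for neural genes 1044 to 1373 against 1030.2 to 1133 CPM. The part of these cell types in the TGF-beta values was not tested.

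Of 16 BMP and GDF genes tested, 9 were higher and 7 lower with a median of 0.02, and of 11 activin and nodal genes 6 were higher and 5 lower with a median of 0.01. The difference between branches was not tested. The summed FPKM of BMP and GDF ligands was 73.8 ± 1.80 in the NC group and 74.8 ± 0.366 in the Baf45d group (SD, n = 3). For BMP antagonists it was 114.3 ± 2.94 and 106.0 ± 10.2, a difference smaller than the spread of the Baf45d group.

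**Figure D3:**
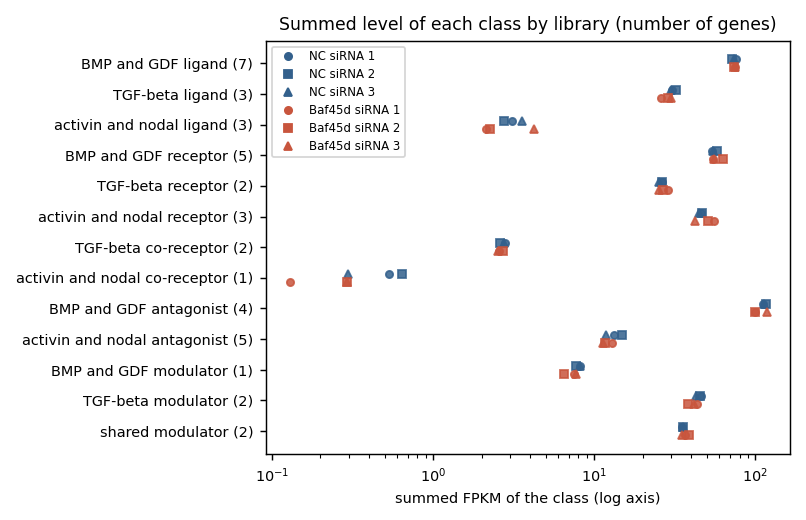
Summed FPKM of the genes of each branch and role in each of the 6 libraries, on a log axis; the number of genes per class is in brackets, colour gives the siRNA and symbol the replicate. The groups lie on top of each other in most classes, as for BMP and GDF ligands at 73.8 against 74.8 FPKM on average, and the activin and nodal co-receptor is Tdgf1 alone.

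Several of the differences turned on Baf45d replicate 3. Library number 3 was highest in both groups for 10 of the 37 genes (27%, against 21.2% of all genes), namely Bmp4, Bmp6, Tgfb1, Tgfb2, Nodal, Inhba, Inhbb, Bmpr1b, Grem1 and Lefty2. It was lowest in both groups for 9 (24.3%, against 20.6%). Without Baf45d replicate 3, 11 of the 37 had an unadjusted p under 0.05 in edgeR (29.7%, against 13.3% of all genes), 9 of them lower and 2 higher. Still 0 of the 37 passed the adjusted threshold, against 0.269% of all genes (44). The groups did not overlap for 19 of the 37 (51.4%, against 30.9%), 14 of them lower. This omission kept NC replicate 3, so genes highest in number 3 in both groups lost a high library from the Baf45d group only. Of the 11, these were Tgfb1, Tgfb2, Inhba, Grem1 and Lefty2. Without both libraries numbered 3, 7 of 36 had an unadjusted p under 0.05 in edgeR (against 10.6% of all genes), 1 higher and 6 lower.

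In the fit without Baf45d replicate 3 alone, Acvr2b had a log2 fold change of 0.40 (SE 0.10, edgeR adjusted p = 0.126) and Tgfb1 of -0.75 (SE 0.19, adjusted p = 0.134). Inhba had -0.62 (SE 0.16, adjusted p = 0.139) and Grem1 -1.59 (SE 0.41, adjusted p = 0.143). Lefty2 followed at -1.77 (SE 0.60, adjusted p = 0.226), then Tgfb2 (-0.24), Tdgf1 (-1.23), Lefty1 (-0.49), Fstl1 (-0.18), Tgfbr2 (-0.30) and Acvr2a (0.20) with adjusted p from 0.305 to 0.376. Without this library the log2 fold change of Bmp6 went from -0.22 to -0.62 and that of Inhbb from -0.35 to -0.67. The value turned from 0.05 to -0.16 for Bmp4, from 0.11 to -0.09 for Bmpr1b and from 0.09 to -0.16 for Fst, and that of Nodal fell to -0.00088 from 0.23. Bmp4, Bmp6, Inhbb, Bmpr1b and Nodal are also among the genes highest in number 3 in both groups. Leaving out NC replicate 1 or NC replicate 2 left 0 of the 37 at an unadjusted p under 0.05 in edgeR, against 1.19% and 1.2% of all genes. Leaving out NC replicate 3 left 2, against 2.94%. With the replicate number as a block the count was 2, Tgfb1 and Tdgf1, which is 5.41% of the 37 against 7.75% of all genes.

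The smooth muscle marker list followed the same libraries. It summed to 223, 214 and 307 CPM in the NC libraries and to 116.5, 130.6 and 319 CPM in the Baf45d libraries. Most of it was Acta2, the smooth muscle actin, at 83.4, 77.7 and 123.8 FPKM in the NC libraries and at 38.7, 46.0 and 127.4 FPKM in the Baf45d libraries. Tagln and Actg2 of the same list stayed near 1 CPM or below in every library. The part of such cells, and of the high Gapdh library, in the values of Grem1, Inhba, Tgfb1 and Lefty2 was not tested.

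**Figure D4:**
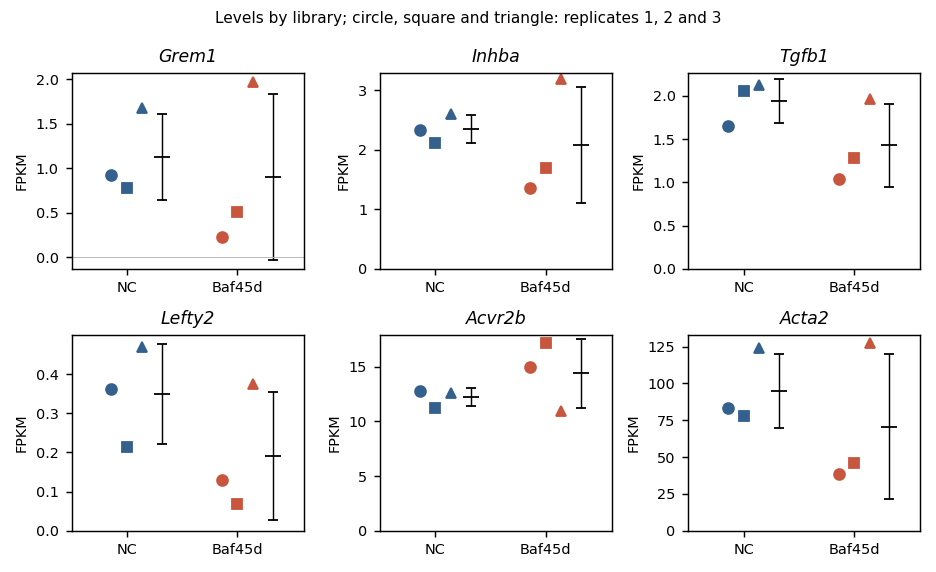
FPKM by library for Grem1, Inhba, Tgfb1, Lefty2 and Acvr2b and for the smooth muscle actin gene Acta2; circles, squares and triangles are replicates 1, 2 and 3, and the bar beside each group is the mean ± SD of its 3 libraries. In the Baf45d group replicate 3 lies far from replicates 1 and 2, as for Grem1 at 1.97 against 0.231 and 0.513 FPKM, and for Acvr2b on the other side, at 10.96 against 14.98 and 17.2 FPKM.

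Of 62 other genes of the pathway (SMADs, further ligands and antagonists, and targets), 48 were tested and 0 were called by edgeR. At an unadjusted p under 0.05 there were 8 (16.7%, against 2.85% of all genes), 1 higher and 7 lower, and the median log2 fold change of the 48 was -0.03. The list was chosen by known function with earlier results of these data known, so this share is not an independent test. The 4 with the smallest p were Bambi, Fstl5, Id3 and Lemd3. Bambi, a decoy receptor that dampens the signal, stood at 9.03, 9.27 and 8.57 FPKM in the NC libraries and at 7.07, 6.33 and 8.23 FPKM in the Baf45d libraries. The groups did not overlap, with a log2 fold change of -0.31 (SE 0.11). Id3, a target of BMP signaling, stood at 141.1, 139.2 and 133.2 FPKM against 125.6, 115.1 and 121.4 FPKM. These groups did not overlap either, with a log2 fold change of -0.19 (SE 0.07).

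Lemd3, a nuclear envelope protein that restrains SMADs, had a log2 fold change of -0.23 (SE 0.09), and Fstl5, a follistatin-like gene, of 0.44 (SE 0.16). The remaining 4 under 0.05 were the inhibitory SMAD Smad7, the antagonist Sost, the latency protein Ltbp4 and the feedback gene Pmepa1, all lower, named after their values were seen. Each of the 8 had an adjusted p of 0.996. Of the transducers, Smad1 was lower in each Baf45d library than in any NC library, with a log2 fold change of -0.15 (SE 0.08), and Smad9, at about 1 FPKM, had overlapping groups and a value of -0.20 (SE 0.18). The values were 0.10 for Smad2, -0.07 for Smad3, -0.01 for Smad4 and -0.01 for Smad5. The BMP targets Id1 and Id2 had values of -0.05 and 0.03.

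In the authors' deposited table of fold changes, 0 of the 40 genes had an adjusted p under 0.05 and 0 had a p under 0.05, the smallest being 0.062. Over 27064 genes with a p in the authors' deposited table, 394 (1.46%) were under 0.05. None of the 40 was among the 132 genes listed in the authors' deposited table of KEGG terms, the 149 in that of Reactome terms or the 223 in that of protein pairs.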

How the data were processed

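RNA of 6 P19 libraries was analysed, 3 with NC siRNA and 3 with Baf45d siRNA. A single expression table was deposited by the authors, giving for every gene, per the file headers, a raw count and an FPKM value in each library. The deposited FPKM matched counts over gene length, scaled in each library in proportion to its DESeq2 size factor. Means of normalized counts per group, a signal, were deposited by the authors too, with their log2 fold changes and p-values. Per the submitters' processing notes, DESeq2 1.16.1 and the build mm9 were used. The genes' positions were nonetheless those of GENCODE M21 (GRCm38), identical at start and end for 98.3% of 54409 shared identifiers and for all 40 genes described. Further tables deposited by the authors list pathway terms with p-values and counts of genes, and protein pairs with a score. The choice of aligner, counting tool and strand setting is not given in the sources used here. Columns of other samples numbered 0.

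Counts were tested with edgeR 4.0.16 in R 4.3.3, using TMM scaling, the filterByExpr defaults (16078 genes kept) and a robust two-sided quasi-likelihood F test with group as the one term. P-values were adjusted by the Benjamini-Hochberg method over all genes tested, and 0.05 was the threshold. SE is the size of the log2 fold change before edgeR's shrinkage, divided by the square root of F. Intervals are 95% and are centred on the log2 fold change given, which is after that shrinkage. CPM uses the TMM factors. The script was tested on simulated counts. At adjusted p under 0.05 in edgeR it recovered 48.4% of genes changed 1.5-fold, 84.1% of those changed 2-fold and 90.9% of those changed 3-fold. Of its calls 10.6% were false. The 95% intervals covered the set value for 89.1% of the genes changed 1.5-fold and 95.2% of the unchanged ones. Alternatives were other scalings and filters, DESeq2 1.42.0, limma-voom, limma 3.58.1 applied to log2(FPKM + 1) and log2(FPKM + 0.1), a replicate block, and omission of each library. Figures used matplotlib 3.10.9.

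The 40 genes, their classes, the 62 other pathway genes and the marker lists were chosen by known function with earlier results of these data known. Values in each library are given for genes whose groups did not overlap, the 5 with the smallest p and the most abundant of each role and branch, and for 4 other pathway genes with the smallest p. Bmp4, Acvr2b, Grem1, Lefty2 and Acta2 were given in each library after their values were seen.

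Both groups carry the replicate numbers 1 to 3 in the labels. Over 16078 genes, a library's deviations from its group mean had r = 0.17, 0.13 and 0.35 with those of the library of the same number, and r of -0.24 to 0.12 with the rest. On this basis, which comes from the data and not from the labels, the numbers were taken as pairing the samples in the alternative fit with the replicate block. The basis is weak for number 2, since NC replicate 1 with Baf45d replicate 2 had r = 0.12. Deviations cancel out within a group, which by construction lowers r for other pairs when 1 pair is high. The pairing of all 3 numbers is thus an assumption. All other values come from the fit without the block. No library was a copy of another.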

Additional observations from a re-analysis of the deposited data

How the results depend on the processing

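In every alternative run, 0 of the family's genes tested (34 to 40) and 0 of the other pathway genes passed the adjusted threshold. Counts at an unadjusted p under 0.05 moved from 1 of 37 (against 2.85% of all genes) to 4 of 40 without a filter on low counts (against 3.85%). They were 0 of 40 in DESeq2 (against 1.32%). They were 0 of 34 with CPM of at least 1 in at least 3 libraries (against 2.7%), a filter that removes Tdgf1. They were 2 of 37 each in limma on log2(FPKM + 1) and log2(FPKM + 0.1), against 3.22% and 3.15% of all genes. With the replicate block it was 2, while over all genes 1 was called and 1246 had an unadjusted p under 0.05, against 0 and 459 without the block, and the block changed no other call. Without a filter 10 genes of the whole table were called and 1147 had an unadjusted p under 0.05. Leaving out each library in turn gave 0 to 44 genes called, 195 to 2170 genes and 0 to 11 of the family's genes (37 or 38 tested) at an unadjusted p under 0.05, and 5 to 19 with non-overlapping groups, the highest of each without Baf45d replicate 3. Over all genes these omissions gave 1.19% to 13.3% at an unadjusted p under 0.05 in edgeR and 13% to 30.9% with non-overlapping groups. Groups of fewer libraries fail to overlap more often by construction. The family had 9 such genes without NC replicate 2 (against 14.1% of all genes) and 8 without NC replicate 3 (against 17.8%). Without both libraries numbered 3, 20 genes were called and 1715 (10.6%) had an unadjusted p under 0.05 in edgeR. Of the 36 family genes tested there, 7 were under 0.05. The groups did not overlap for 22 of them, against 41.6% of all genes. Overlap was not computed for DESeq2, limma-voom and the block, which use the same values per library or give none. The sign held in all 6 omissions for 20 of the 37 genes and turned for 17. Inha turned to -0.012 in limma-voom and to -0.0014 on log2(FPKM + 0.1), and the cause was not tested. Over the omissions log2 fold changes ran from -0.16 to 0.16 for Inha, -0.019 to 0.071 for Bmp7, -0.62 to 0.058 for Inhba, -0.12 to 0.13 for Acvr1b and -0.012 to 0.14 for Bmpr1a.

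Depth limits what can be said of the 8 genes below 0.5 FPKM, and 3 libraries per group limit the rest. The groups rest on the labels, since Dpf2 itself hardly differed. Differences that turn on Baf45d replicate 3 depend on whether that 1 library is kept.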
